A study of Mus musculus with 6 samples.

Results

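Psca and genes of the urothelium, the epithelium that lines the renal pelvis and the urinary tract, were followed in RNA of whole mouse kidneys. The 10 genes are Psca, Clic6, Sptssb, Upk1a, Upk1b, Upk2, Upk3a, Upk3b, Krt5 and Trp63, out of 55401 gene IDs in the count table. Psca, Clic6 and Sptssb were selected on their measured rise in the diseased kidneys of these same data, so their difference between the groups is described here without a test. The other 7 were listed by name as urothelial genes and take their p-values from a fit over all genes. They and the lists below were also chosen with earlier results of these data known, so their p-values are not free of selection. The study compared 3 libraries labelled control with 3 labelled DKD (diabetic kidney disease). Its stated question was the expression of histone methyltransferases in that disease. The labels give the tissue and the group, but not the strain, age or sex of the mice, nor how diabetes was induced. They do not say that each library is a separate animal, and a p-value here reflects only how far the 6 libraries spread, technical variation included.

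Urothelium is layered. Its basal cells carry keratin 5 and the transcription factor p63 (Krt5 and Trp63), and its superficial umbrella cells cover their surface with plaques built from uroplakins. In the plaques the tetraspanins Upk1a and Upk1b pair with the single-span proteins Upk2 and Upk3a. Upk3b is a relative of Upk3a that is also made by mesothelium, the cell sheet over the organ's outer surface. Psca (prostate stem cell antigen) is a small lipid-anchored surface protein of the Ly6 family, known from bladder, prostate and stomach epithelium. Clic6 belongs to the chloride intracellular channel family. Sptssb is a small subunit of serine palmitoyltransferase, the enzyme that starts sphingolipid synthesis.

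All 10 genes passed the filter on low counts. The filter's level was 0.138 CPM (reads scaled by library size, here the plain total). Clic6, Sptssb, Upk1b, Upk2 and Krt5, 5 of the 10, were below it in at least 1 control library, and so passed with the help of the DKD libraries. Levels printed below are CPM by effective library size. In whole-kidney RNA, more cells of a type and more RNA per cell cannot be told apart.

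Library totals ran from 64816622 to 77417638 counts, and a gene with no read may lie anywhere below 3 counts, or 0.0354 to 0.0505 CPM (counting error only). Kidney identity was clear, with a proximal tubule list summing to 20840.5 to 50188 CPM and a podocyte list to 174 to 364 CPM. DKD replicate 1 stood apart: a list of 16 hepatocyte genes summed to 5005 CPM there and to 562 to 724 CPM in the other libraries. Over all 19197 genes tested, 0 passed an adjusted p of 0.05 in the quasi-likelihood test of edgeR, and 3694 (19.2%) had an unadjusted p under 0.05. Without DKD replicate 1 the same test called 3101 genes, DESeq2 called 1749 on all 6 libraries, and limma-voom with sample quality weights called 3397. Values are therefore given below for all libraries and, where a call depends on it, without DKD replicate 1.

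The start regions of 4 of these genes are shown because their levels part ways in DKD replicate 1, where Sptssb and Upk3b stood several-fold above every control library and Upk1a and Upk3a stayed near the control range. Each is the stretch of 250 bases before the RefSeq transcription start (GRCm38.p6, 5′ to 3′ on the gene's strand). Capitals mark matches to any of 6 short motifs searched on both strands: AACCNGTT for grainyhead-like factors, AGATAA for factors of the Gata3 family, GGGCGG for KLF and SP factors, TGANTCA for AP-1, AGGTCA as the half-site of nuclear receptors, and TGTTTNC for FOXA factors.
Sptssb, chr3:69859895-69860144, minus strand: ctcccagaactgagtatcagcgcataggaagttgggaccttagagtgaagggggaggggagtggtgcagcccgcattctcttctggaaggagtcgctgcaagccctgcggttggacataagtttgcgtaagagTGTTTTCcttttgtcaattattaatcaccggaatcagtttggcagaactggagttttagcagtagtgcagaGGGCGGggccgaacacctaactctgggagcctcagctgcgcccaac
Upk3b, chr5:136038246-136038495, plus strand: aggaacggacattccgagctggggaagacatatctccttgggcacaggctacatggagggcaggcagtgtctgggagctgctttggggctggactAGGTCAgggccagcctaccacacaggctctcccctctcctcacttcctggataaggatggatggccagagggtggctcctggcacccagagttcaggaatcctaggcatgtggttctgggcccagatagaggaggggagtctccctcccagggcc
Upk1a, chr7:30612735-30612984, minus strand: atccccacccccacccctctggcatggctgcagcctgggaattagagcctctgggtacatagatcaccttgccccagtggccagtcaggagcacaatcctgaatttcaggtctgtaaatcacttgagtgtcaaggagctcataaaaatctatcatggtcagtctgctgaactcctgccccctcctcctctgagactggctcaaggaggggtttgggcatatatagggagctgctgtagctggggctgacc
Upk3a, chr15:85016891-85017140, plus strand: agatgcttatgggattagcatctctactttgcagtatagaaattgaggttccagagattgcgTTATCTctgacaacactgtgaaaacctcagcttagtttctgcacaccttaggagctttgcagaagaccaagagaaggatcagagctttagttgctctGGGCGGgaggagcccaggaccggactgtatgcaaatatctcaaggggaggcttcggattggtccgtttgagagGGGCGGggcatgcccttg
Of the 10 genes, 5 had a start region in the table, these 4 and Krt5. No motif was shared by Sptssb and Upk3b. GGGCGG stood in Sptssb and Upk3a, and in 32.7% of the 32851 start regions of the table. TGTTTNC stood in Sptssb (17.8% of all), AGATAA in Upk3a (9.99%) and AGGTCA in Upk3b (14%). AACCNGTT (1.79%) and TGANTCA (6.75%) stood in none of the 5, and Upk1a and Krt5 held no match. A match is a description of letters and does not show that a factor binds.

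Psca was low in the control kidneys and high in every DKD kidney. Its levels were 1.46, 0.242 and 1.27 CPM in control replicates 1 to 3 and 5.94, 28.3 and 33.2 CPM in DKD replicates 1 to 3. The groups did not overlap, and the lowest DKD library stood 4.05-fold above the highest control library. Mean levels were 0.992 ± 0.656 and 22.5 ± 14.5 CPM (SD, n = 3), a ratio of 22.7. The fitted log2 difference was 4.50 ± 0.91 (SE). DKD replicate 1 was 5.98-fold above the control mean, against 28.5-fold and 33.5-fold in DKD replicates 2 and 3, and the fitted difference without it was 4.95.

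Sptssb had nearly the same profile at a lower level. The control libraries held 0.269, 0.0606 and 0.310 CPM, which is 16, 4 and 22 reads, and the DKD libraries held 1.60, 9.05 and 10.6 CPM, which is 122, 697 and 898 reads. As for Psca, control replicate 2 was lowest and DKD replicate 1 lay between the controls and the other DKD libraries, 5.16-fold above the highest control. The fitted log2 difference was 5.04 ± 0.90 (SE), and 5.50 without DKD replicate 1.

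Clic6 was close to absent in control kidneys and nearly equal in the 3 DKD kidneys. The control libraries held 0, 4 and 0 reads and the DKD libraries 140, 165 and 176 reads, in the order of replicates 1 to 3. Levels in DKD were 1.84, 2.14 and 2.07 CPM, and DKD replicate 1 was not set apart from the others, unlike for Psca and Sptssb. The 4 control reads carry a 95% Poisson interval of 1.09 to 10.2 reads and the 481 DKD reads one of 439 to 526, both for counting error only. The fitted log2 difference of 6.52 ± 0.90 (SE) rests on these 4 control reads, and DESeq2 gave 6.62. Without control replicate 2, the library that held all 4, it was 10.2. No control read is left in that fit, so the value there depends on the prior count.

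**Figure D1:**
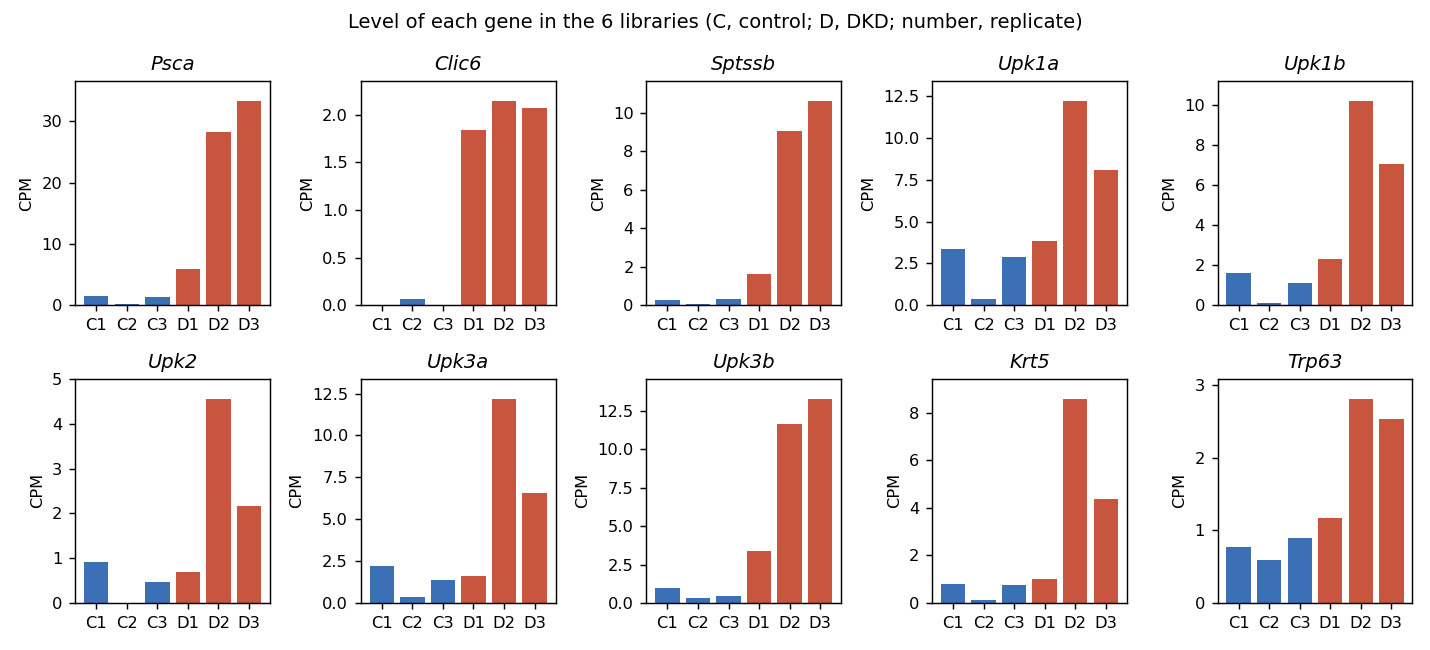
Levels of the 10 genes in each library, as CPM on a linear axis that starts at 0, with control libraries in blue and DKD libraries in red. Psca reached 28.3 and 33.2 CPM in DKD replicates 2 and 3, DKD replicate 1 was lowest of the DKD bars in every panel, and control replicate 2 was lowest of the controls in every panel except that of Clic6.

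The plaque uroplakins were higher mainly in DKD replicates 2 and 3. Upk1a, a tetraspanin of the plaque, was at 3.37, 0.394 and 2.89 CPM in control and 3.85, 12.2 and 8.07 CPM in DKD kidneys. Upk3a, the partner of Upk1b, was at 2.19, 0.379 and 1.38 CPM in control and 1.62, 12.2 and 6.55 CPM in DKD kidneys. DKD replicate 1 thus lay just above the highest control for Upk1a and inside the control range for Upk3a. The fitted log2 differences were 1.86 ± 0.78 for Upk1a and 2.37 ± 0.86 for Upk3a (SE), with edgeR adjusted p over all genes of 0.260 and 0.215.

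Upk1b, the second plaque tetraspanin, held 1.62, 0.121 and 1.11 CPM in control and 2.34, 10.2 and 7.08 CPM in DKD kidneys. Its groups did not overlap, but its difference of 2.78 ± 0.92 (log2, SE) had an edgeR adjusted p of 0.187. Upk2, the partner of Upk1a, held 0.909, 0 and 0.466 CPM in control and 0.696, 4.56 and 2.16 CPM in DKD kidneys. DKD replicate 1 lay inside the control range, and the difference of 2.43 ± 1.25 had an edgeR adjusted p of 0.334. Control replicate 2 was the lowest library for all 4 plaque genes, at 0.126 times the mean of the other controls for Upk1a and 0.0888 times for Upk1b.

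Upk3b differed from the plaque genes in DKD replicate 1. Its levels were 0.942, 0.348 and 0.466 CPM in control and 3.35, 11.6 and 13.3 CPM in DKD kidneys, so the lowest DKD library stood 3.55-fold above the highest control. The difference of 4.01 ± 0.64 (log2, SE) had the smallest p of the 7 listed genes, with an edgeR adjusted p of 0.103 over all genes and 0.00173 without DKD replicate 1. Leaving out any other single library gave an edgeR adjusted p between 0.182 and 0.336.

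The basal cell genes were higher too, to unequal extents. Krt5 held 0.808, 0.121 and 0.748 CPM in control and 1.01, 8.57 and 4.35 CPM in DKD kidneys, a difference of 3.05 ± 0.94 (log2, SE; edgeR adjusted p = 0.170). Trp63, which specifies basal cells in stratified epithelia, held 0.774, 0.591 and 0.889 CPM in control and 1.17, 2.80 and 2.53 CPM in DKD kidneys, a difference of 1.53 ± 0.40 (edgeR adjusted p = 0.139). Trp63 varied least among the controls, where control replicate 2 was at 0.711 times the mean of the others, against 0.156 times for Krt5.

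Of the 7 listed genes, edgeR called 0 over all genes on 6 libraries, where 0% of all genes were called. All 7 had a higher fitted level, with a median log2 difference of 2.43 beside 0.02 over all genes tested. At an unadjusted p under 0.05, 5 of the 7 were higher (12.2% of all genes were higher and 19.2% differed in either direction), and for 5 of the 7, all but Upk2 and Upk3a, the groups did not overlap (13.8% of all genes, DKD higher). Without DKD replicate 1, edgeR called 4 of the 7 higher over all genes, Upk3a, Upk3b, Krt5 and Trp63 (9.67% of all genes). DESeq2 called 5 (6.22% of all genes), all but Upk1a and Upk2, and weighted limma-voom called 5 (9.94%), all but Upk2 and Krt5. These fits reuse the same libraries. Upk1b, Upk2 and Krt5 entered the test only with the help of the DKD libraries, so the counts over the 7 describe them and support nothing. DKD replicate 1, with the hepatocyte sum of 5005 CPM, had the lowest level of all 7 within its group, and the part of those transcripts in these values was not tested.

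**Figure D2:**
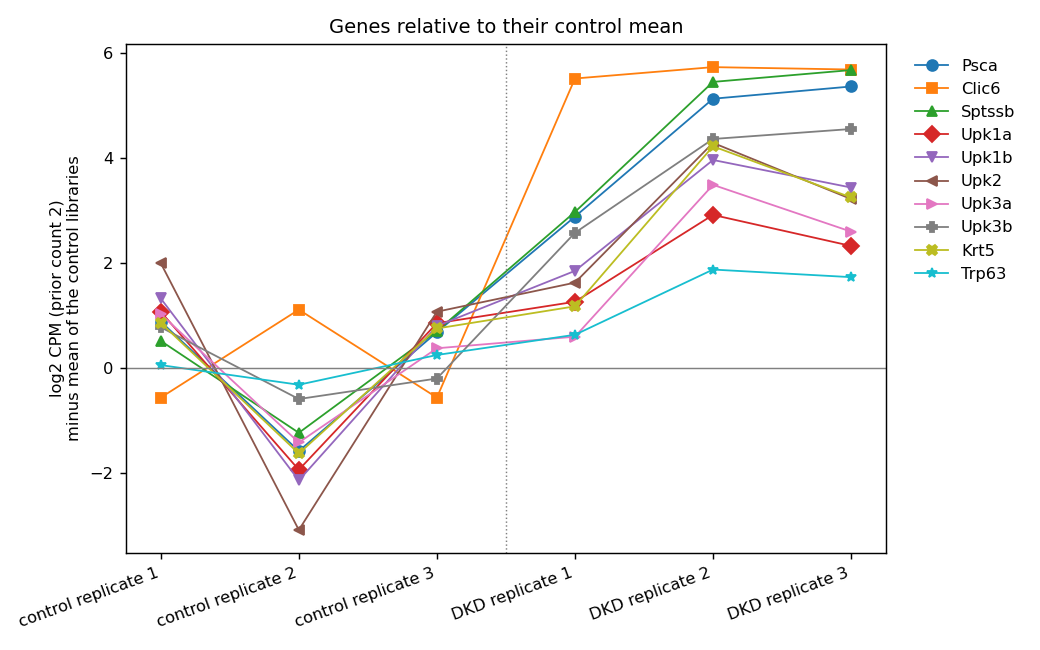
Level of each gene in each library as log2 CPM (prior count 2) minus its mean over the 3 control libraries; lines only join the values of a gene. In DKD replicate 1, Psca, Sptssb and Upk3b stood 2.89, 2.98 and 2.58 above the control mean and Upk3a 0.60, while Clic6 was at 5.52, near its values in the other DKD libraries.

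Levels were compared between genes only per kilobase of exon, with lengths from the GENCODE M21 annotation. In control kidneys the order by mean was Upk1a, Upk3a, Psca, Upk1b, Upk2, Krt5, Upk3b, Sptssb, Trp63 and Clic6, from 1.56 ± 1.12 to 0.00516 ± 0.00894 CPM per kilobase (SD, n = 3). In DKD kidneys it was Psca, Upk3a, Upk1a, Sptssb, Upk1b, Upk3b, Upk2, Krt5, Clic6 and Trp63, from 26.1 ± 16.9 to 0.258 ± 0.104 CPM per kilobase. In each group, 8 of 9 neighbours in the order had overlapping SD ranges, and the pair of Trp63 and Clic6 was the exception. Within libraries, Psca stood above Upk3a on this scale in 3 of 3 DKD kidneys and in 1 of 3 control kidneys. Sptssb stood above Upk1b in 2 of 3 DKD kidneys and in 0 of 3 control kidneys.

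Because the uroplakin total itself varied between kidneys, each gene was also set against it within its own library, a scale chosen after the values were seen. The summed level of Upk1a, Upk1b, Upk2 and Upk3a was 8.08, 0.894 and 5.85 CPM in control and 8.50, 39.1 and 23.9 CPM in DKD kidneys. DKD replicate 1 was therefore close to control replicate 1 in this total. Psca per unit of this total was 0.181, 0.271 and 0.217 among controls, against 0.699, 0.723 and 1.39 among DKD kidneys, 4.20 times higher by group means, with no overlap. Sptssb per unit was 0.0333, 0.0678 and 0.0530 among controls, against 0.189, 0.231 and 0.443 among DKD kidneys, 5.60 times higher, again with no overlap. Both genes were picked for their rise in these libraries, so their higher ratios follow in part from that choice and support nothing. The share of all genes with ratios that do not overlap was not computed. Among controls the uroplakin total spanned 9.04-fold, while the Sptssb ratio spanned 2.03-fold and the Psca ratio ran from 0.181 to 0.271. In control replicate 2, Sptssb had 4 reads, Psca 16, and Upk1a, Upk1b, Upk2 and Upk3a 26, 8, 0 and 25. The spans of these ratios therefore carry a large counting error.

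For the other genes the ratios of the groups overlapped. Krt5 per unit was 0.100, 0.136 and 0.128 among controls, against 0.119, 0.219 and 0.182 among DKD kidneys, a narrow range throughout. Upk3b per unit was 0.117, 0.390 and 0.0795 among controls, against 0.394, 0.297 and 0.556 among DKD kidneys, where the high control was replicate 2. Trp63 per unit was 0.0958, 0.661 and 0.152 among controls, against 0.138, 0.0717 and 0.106 among DKD kidneys. The smallest two-sided p that an exact permutation test of 3 against 3 can give is 0.10, and no test was made of these ratios.

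**Figure D3:**
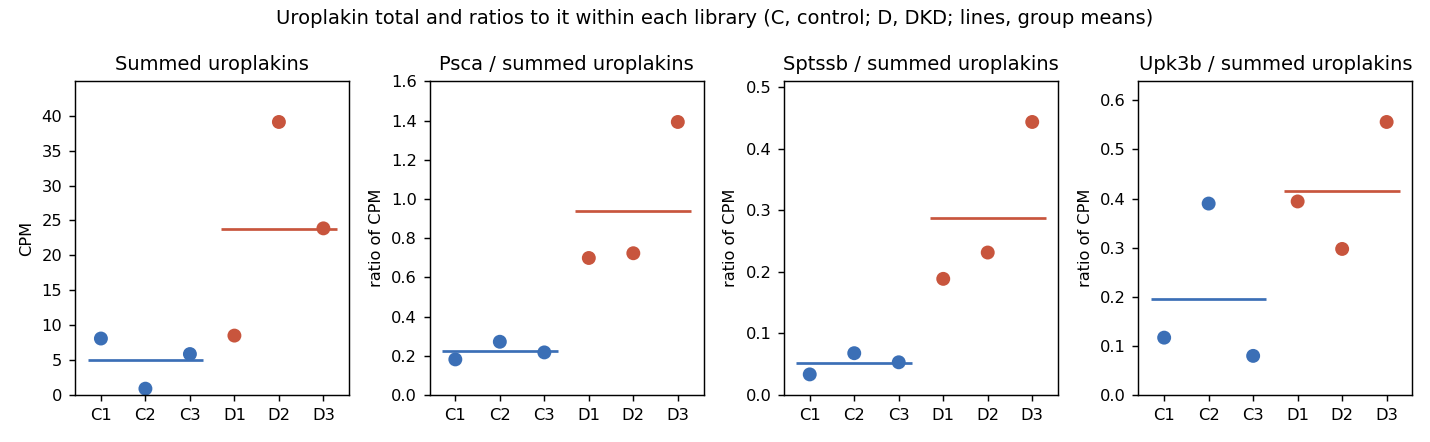
Summed CPM of 4 plaque uroplakins in each library (first panel) and the ratio of Psca, Sptssb and Upk3b to that sum in the same library, on linear axes from 0; horizontal lines are group means. Psca and Sptssb, both picked for their rise, had higher ratios in all 3 DKD libraries than in all 3 controls. The Upk3b ratios of the groups overlapped.

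Profiles across the 6 libraries were compared by the root mean square distance between centred log2 CPM values (prior count 2), over genes with a mean of at least 1 CPM. The nearest of 14675 genes to Psca was Sptssb, at a distance of 0.25 on the log2 scale, followed by Ahnak2 (0.58), Upk3b (0.65) and Upk1b (0.80). Psca and Sptssb were both picked for their rise in these libraries, and that rise enters the distance. Their closeness is therefore partly fixed by the choice and is a description only. For the mean of the 5 uroplakins the nearest were Sprr1a (0.26), Krt5 (0.30), Gsdmc2 (0.36) and Sprr2a1 (0.38). Sprr1a and Sprr2a1 encode small proline-rich proteins of stratified and stressed epithelia, and Gsdmc2 is a gasdermin. Sprr1a was at 2.64, 0.364 and 2.47 CPM in control and 3.03, 14.5 and 12.8 CPM in DKD kidneys, low in control replicate 2 and near the controls in DKD replicate 1 like the plaque genes. Sprr2a1 and Gsdmc2 have near-identical neighbours in their families, so their counts are uncertain. The nearest genes to Clic6 lay farther off, Xlr4b at 0.98, Rdh9 at 1.01, Gulo at 1.07 and Gm42878 at 1.13. Gulo, an enzyme of vitamin C synthesis made in mouse liver, held 12.1, 3.22 and 2.22 CPM across DKD replicates 1 to 3, and Gm42878 had no read in any control library.

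Other genes of urothelial identity showed the same direction in most cases. Tests were possible for 29 of 30 genes, and the fitted level was higher in DKD for 27 and lower for 2 (median log2 difference 1.27, beside 0.02 over all genes). With edgeR 0 passed the threshold over all genes, while 16 were higher and 1 lower at an unadjusted p under 0.05 (12.2% and 7.05% of all genes). Without DKD replicate 1, 16 were called higher and 1 lower over all genes (9.67% and 5.84% of all genes), and without control replicate 2, 14 were higher at an unadjusted p under 0.05 (8.75% of all genes). Some of the higher genes, Trim29 and Foxa1 among them, were under the filter's level in a control library and passed with the help of the DKD libraries. The same holds for members of the lists below, such as Lypd1 and Msln. Counts over the lists therefore describe them and support nothing. Krt7, a keratin of simple and urothelial epithelium, was at 81.9, 77.3 and 67.7 CPM in control and 109, 130 and 130 CPM in DKD kidneys (log2 difference 0.70 ± 0.12, SE). Dsp, the desmosomal plaque protein, differed by 1.04 ± 0.18 with no overlap. Krt7 and Dsp each had an edgeR adjusted p of 0.103. Krt20, the keratin of umbrella cells, was at 0, 0.288 and 0.621 CPM in control and 0, 4.52 and 3.78 CPM in DKD kidneys. Aqp3 was the gene lower in DKD, at 122, 114 and 104 CPM in control and 99.6, 74.2 and 86.1 CPM in DKD kidneys. Ovol1 differed by -0.16 ± 0.19 and Krt8, an abundant keratin, by 0.15 ± 0.19 (log2, SE), both with overlapping groups. Many of these genes are also made by tubular epithelium, the collecting duct above all, and Krt13 had no read in any library.

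The lists that follow are no separate count, since 9 of the 10 transcription factors and 8 of the 16 tested basal genes also stand in the identity list. Among 10 urothelial transcription factors other than Trp63, 9 had a higher fitted level and 6 had an unadjusted p under 0.05 (12.2% of all genes), with 0 past the adjusted threshold. Ehf, an ETS factor of epithelia, differed by 1.09 ± 0.22 (log2, SE; edgeR adjusted p = 0.106), and Tbx3, a T-box factor, by 1.75 ± 0.40 (edgeR adjusted p = 0.117). Elf3 differed by 0.96 ± 0.25 and Gata3 by 0.83 ± 0.26. Without DKD replicate 1, 6 of the 10 were called higher over all genes (9.67% of all genes). Of 16 tested genes of basal epithelium and its anchorage other than Krt5 and Trp63, 14 had a higher fitted level, and 6 were higher and 1 lower at an unadjusted p under 0.05 (12.2% and 7.05% of all genes). Itgb4, the hemidesmosome integrin chain, was at 4.06, 3.53 and 3.85 CPM in control and 5.35, 14.9 and 13.2 CPM in DKD kidneys (log2 difference 1.55 ± 0.37; edgeR adjusted p = 0.120). Lamb3, a laminin chain of that junction, differed by 2.01 ± 0.50 (edgeR adjusted p = 0.133). Lama3, another laminin chain, was the gene lower in DKD, with a log2 difference of -0.27 ± 0.10 (edgeR adjusted p = 0.213), with no overlap.

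Other genes of the Ly6 and uPAR family of Psca mostly had a higher fitted level. Apart from Psca this held for 15 of 16 tested members (median log2 difference 0.79), 6 were higher at an unadjusted p under 0.05 (12.2% of all genes) and 0 passed the adjusted threshold. Without DKD replicate 1 the count of 6 became 11, where the share of all genes was also larger, at 17.9%. Ly6a, the antigen Sca-1, was at 405, 315 and 304 CPM in control and 422, 582 and 519 CPM in DKD kidneys (log2 difference 0.57 ± 0.17; edgeR adjusted p = 0.158). Ly6d, a surface protein of stratified epithelia, was at 0.370, 0.182 and 0.451 CPM in control and 0.341, 6.35 and 1.84 CPM in DKD kidneys, a log2 difference of 3.08 ± 1.00 (SE; edgeR adjusted p = 0.183). Lypd1 had the largest fitted difference, 3.44 ± 1.30 (edgeR adjusted p = 0.220), which rests on few control reads because 2 control libraries had none. Its level was at most 0.0909 CPM among controls and 0.636 CPM among DKD kidneys, and it was named after its values were seen. Lypd2, a family member close to Psca in the genome, was at 0.724, 0.652 and 0.550 CPM in control and 1.42, 1.52 and 1.98 CPM in DKD kidneys (log2 difference 1.35 ± 0.30; edgeR adjusted p = 0.114).

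The nearest tested genes on either side of Psca in the reference order overlapped between the groups, while Lypd2, the third gene on the side of Them6, did not (log2 difference 1.35 ± 0.30, above). On one side Jrk differed by 0.19 ± 0.23 and 4933427E11Rik by 0.67 ± 0.46 (log2, SE), with edgeR adjusted p of 0.686 and 0.454. On the other side Them6 was at 14.4, 14.1 and 15.0 CPM in control and 10.6, 17.5 and 20.9 CPM in DKD kidneys, a difference of 0.17 ± 0.24 (edgeR adjusted p = 0.718). Slurp1 was too low to test, at no more than 0.130 CPM in any library, and Gm32994 had no matching ID in the count table.

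The other chloride intracellular channel genes were nearly level between the groups or lower in DKD. Clic4 was at 227, 261 and 257 CPM in control and 218, 173 and 179 CPM in DKD kidneys, a difference of -0.39 ± 0.13 (log2, SE; edgeR adjusted p = 0.177). Clic1, Clic5 and Clic3 differed by 0.21 ± 0.16, -0.23 ± 0.24 and 0.23 ± 0.24, each with overlapping groups. Of these 4 genes 0 passed the adjusted threshold, and Clic4 alone had an unadjusted edgeR p under 0.05 (7.05% of all genes were lower). The groups of Clic4 did not overlap (11.5% of all genes, DKD lower). Among 22 tetraspanins other than Upk1a and Upk1b, 15 had a higher fitted level and 0 passed the adjusted threshold. At an unadjusted edgeR p under 0.05, 10 were higher and 2 lower (12.2% and 7.05% of all genes). Tspan6 differed by 1.59 ± 0.27 and Tspan5 by -0.91 ± 0.25 (log2, SE).

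Among other genes of sphingoid base and ceramide synthesis the directions were mixed. Of 16 tested, 7 had a higher and 9 a lower fitted level (median -0.11), 0 passed the adjusted threshold, and 2 were higher and 5 lower at an unadjusted p under 0.05 (12.2% and 7.05% of all genes). Sptssa, the alternative small subunit of the same enzyme, was at 53.9, 59.5 and 49.3 CPM in control and 48.6, 47.8 and 42.9 CPM in DKD kidneys. Sptlc1, the shared large subunit, differed by -0.30 ± 0.10 (log2, SE; edgeR adjusted p = 0.185), and the desaturase Degs1 by -0.50 ± 0.11 (edgeR adjusted p = 0.115). Sptlc3, a large subunit with low kidney levels and named after its values were seen, was at 0.942, 0.106 and 0.113 CPM in control and 1.51, 1.79 and 1.61 CPM in DKD kidneys, with no overlap. Without DKD replicate 1, 1 of the 16 was called higher and 4 lower over all genes (9.67% and 5.84% of all genes).

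**Figure D4:**
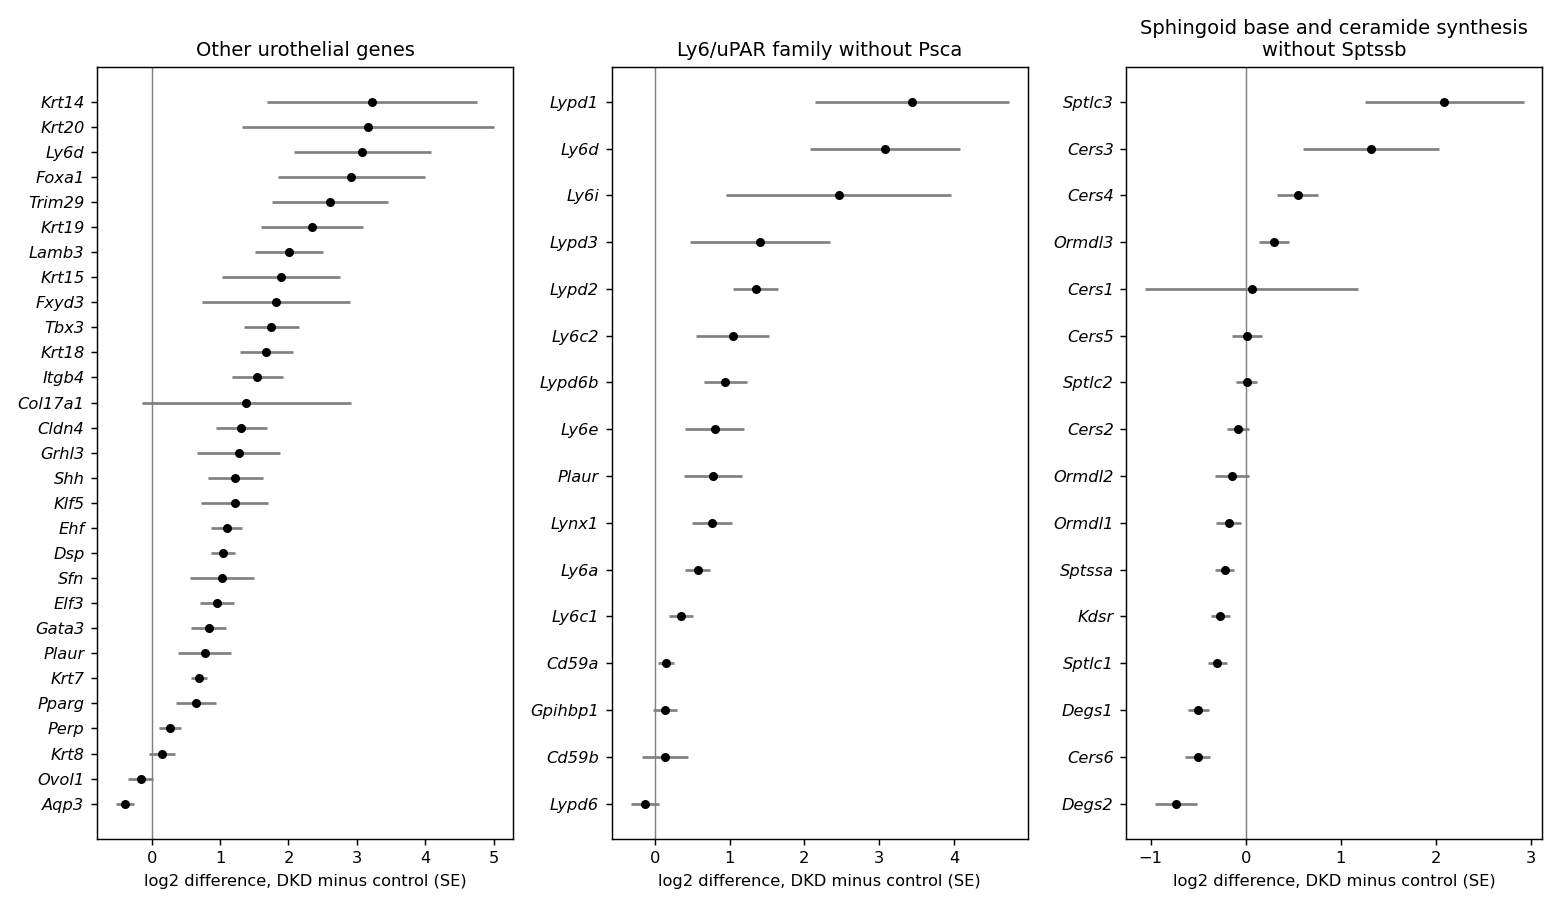
Fitted log2 difference (DKD minus control) with its SE for the tested members of 3 lists, without Psca and Sptssb. In the first 2 panels 27 of 29 and 15 of 16 genes lie right of 0, while in the third 9 of 16 lie left of it.

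Markers of other tissue that a kidney sample can include were set beside these values. A list of 11 smooth muscle genes, found in the wall of the pelvis and ureter and in arteries, summed to 162 to 211 CPM in control and to 175, 235 and 262 CPM in DKD replicates 1 to 3, with 2 of 10 tested genes higher at an unadjusted p under 0.05 (12.2% of all genes) and 6 without DKD replicate 1 (17.9%). Mesothelial genes matter for Upk3b, since it was high in DKD replicate 1 as well. Upk3b was left out of the list, as was Upk1b, which is part of the uroplakin total and was also listed for mesothelium. A list of 10 summed to 212 to 250 CPM in control and to 496, 282 and 347 CPM in DKD replicates 1 to 3, with 4 of 6 tested genes higher at an unadjusted p under 0.05 (12.2% of all genes). Those 4 were C3, Wt1, Krt19 and Msln, of which Wt1 is also a podocyte gene and Krt19 also in the urothelial list. Most of that sum came from Gpm6a and C3, which kidney or liver cells also make: Gpm6a was at 314, 118 and 111 CPM and C3 at 169, 133 and 199 CPM in DKD replicates 1 to 3. Msln was at 0.438, 0 and 0.381 CPM in control and 0.591, 3.98 and 2.22 CPM in DKD kidneys, while Lrrn4 and Bnc1 had no read in any library. A list of 15 genes of the inner medulla and papilla summed to 1881 to 2358 CPM in control and to 1860, 1933 and 1839 CPM in DKD kidneys. That sum was mostly Aqp1, a water channel that the proximal tubule also makes, at 1213, 1095 and 1394 CPM in control and 1045, 790.4 and 788 CPM in DKD kidneys. By gene, 5 of the 15 were higher and 1 lower at an unadjusted p under 0.05 (12.2% and 7.05% of all genes), and the 5 were Bst1, Cldn4, Akr1b3, S100a6 and S100a4. Akr1b3, the aldose reductase of the medulla, was at 97.8, 76.2 and 70.4 CPM in control and 90.1, 344 and 223 CPM in DKD kidneys, high in DKD replicates 2 and 3 like the plaque genes. Principal cell genes of the collecting duct summed to 1138 to 1166 CPM in control and to 1130, 1192 and 1300 CPM in DKD kidneys. Among these 12 genes, 4 were higher and 2 lower at an unadjusted edgeR p under 0.05 (12.2% and 7.05% of all genes). Gata3 among the higher and Aqp3 among the lower also stand in the urothelial identity list, as does Cldn4 of the papilla list. Elf5 was at 2.37, 1.88 and 2.24 CPM in control and 3.43, 10.2 and 9.04 CPM in DKD kidneys. Aqp4 was at 110, 112 and 157 CPM in control and 44.8, 81.8 and 66.7 CPM in DKD kidneys. Proximal tubule genes summed to 39876, 24759 and 20840.5 CPM in DKD replicates 1 to 3 and to 40089 to 50188 CPM in control. Other cell types moved with the DKD group as well. All 8 podocyte genes were higher at an unadjusted p under 0.05, with no overlap between the groups (13.8% of all genes). Macrophage genes summed to 253 to 479 CPM in control and to 228, 707 and 811 CPM in DKD kidneys, and 6 of 8 were called higher without DKD replicate 1 (9.67% of all genes). Adipocyte genes summed to 23.5 to 30.9 CPM in control and to 30.7, 37.4 and 71.3 CPM in DKD kidneys, and Cfd, Plin1 and Adipoq had no read in control and their highest level in DKD replicate 3. The smooth muscle sum and Msln were highest in DKD replicates 2 and 3, as the uroplakins were. Not every smooth muscle gene followed the sum. Synpo2 was highest in control replicate 3, at 8.01 CPM, and Mylk was at 71.2 CPM there and 67.1 CPM in DKD replicate 2. Msln in DKD replicate 1 was near its controls where Upk3b was not. The part of any of these cell types in the levels of the urothelial genes was not tested.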

How the data were processed

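Per the labels' protocols, poly(A) RNA from 6 mouse kidneys went into dUTP strand-marked libraries. The authors deposited a table of raw read counts per gene, 55401 Ensembl IDs, without normalisation. GRCm39 is the build, and edgeR, StringTie, HISAT2 and fastp the tools, named in the submitters' processing notes. For their versions, the annotation and the strand setting, nothing is given in the sources used here. Symbols, exon lengths and RefSeq start regions came from GRCm38 references, and a symbol was matched for 55141 IDs.

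Counts were tested in R 4.3.3 with edgeR 4.0.16 (quasi-likelihood, robust, two-sided, TMM factors, default filter, Benjamini-Hochberg over 19197 genes, threshold 0.05). Library sizes behind each printed level in CPM include the TMM factor, while the default filter used plain library sizes. Alternatives were DESeq2 1.42.0, limma-voom (3.58.1) with quality weights, plain library sizes, upper quartile or RLE factors, other filters, a replicate block and leaving out each library. Without a library, list counts, and the ratio to the uroplakins, were added after seeing the data.

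The 10 genes and all lists were chosen with earlier results of these data known. The named genes are the 10, up to 4 of each list with the smallest p at a mean of at least 1 CPM, the 4 nearest profiles and the neighbours of Psca. Others were chosen after their values were seen, among them Krt20, Krt14, Sptssa and Sptlc3. Not every gene this takes is printed. Each list was described by counts and its median, without a set test.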

Additional observations from a re-analysis of the deposited data

How the results depend on the processing

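All 10 genes kept a higher fitted level in DKD under every alternative in which they were tested, Upk2 and Krt5 not being testable at a filter of CPM 1 in 3 libraries. The fitted log2 difference ranged from 4.04 to 5.42 for Psca, up to 5.76 for Sptssb and from 5.93 to 10.2 for Clic6. For the listed 7, the edgeR test called none with other scalings, with either filter or with the replicate block. It called 4 without DKD replicate 1 and 0 without any other library. Over all genes, where 0 were called, DESeq2 called 1749, weighted limma-voom 3397 and the fit with no filter 4. Leaving out each library gave 0 to 3101 genes.

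With the replicate block the count of called genes was 0, as without it. Deviations of same-numbered libraries correlated at 0.0227 to 0.0344, too weakly to treat the numbers as pairs, although each library correlated best with its own number. With a prior count of 0.5, 3 of the 4 nearest genes were shared for Psca, for Sptssb and for the uroplakin mean, and 2 of 4 for Clic6. Control levels of Clic6, Sptssb and Upk2 rest on 0 to 54 reads per library.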

Other observations

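Some keratinocyte-type genes of the urothelial lists were high in a single DKD kidney. Krt14, a basal keratin, was at 0.151, 0 and 0.226 CPM in control and at 0.184, 3.22 and 0.165 CPM in DKD replicates 1 to 3, and Col17a1, an anchoring collagen, was at most 0.268 CPM in control and 0, 0.675 and 0.283 CPM in DKD kidneys. Of an epidermal list of 12 genes, 5 were tested and 4 had a higher fitted level. At an unadjusted edgeR p under 0.05, 2 were higher, Sprr1a and Sprr2a1, and 0 lower (12.2% and 7.05% of all genes). Without DKD replicate 1, 4 of 7 tested were called higher and 1 lower over all genes (9.67% and 5.84% of all genes). Krt6a and Sprr1b had no read in any library. Krt10, a suprabasal keratin, was at 7.99, 8.05 and 8.00 CPM in control and at 8.60, 3.97 and 2.19 CPM in DKD kidneys. Krt10 differed by -0.70 ± 0.45 (log2, SE; edgeR adjusted p = 0.422). Krt14 and Col17a1 were chosen after their values were seen.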
